A study of Mus musculus with 36 samples.

Results

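The 9 genes described here encode the core of mitochondrial fatty acid oxidation: Cpt1a, Cpt2, Slc25a20, Acadm, Acadl, Acadvl, Hadha, Hadhb and Etfdh. A probe set, the group of short oligonucleotides that measures 1 transcript on an Affymetrix array, was taken for a gene when it mapped to that gene's symbol and to no other. The 9 genes were among 18193 genes with such a probe set, and all 9 were among the 13981 genes bright enough to be tested. Liver RNA from 36 mice was hybridised to 1 array per mouse. The labels give 4 strains (SJL, then C57, DBA and SMJ), and each strain had 3 mice at each of 3 times. They were fasted overnight and killed before dosing (0 h), or 3 h or 6 h after an intraperitoneal injection of 300 mg/kg acetaminophen (APAP), a painkiller that damages the liver in overdose. The series design calls SJL resistant and the other 3 strains sensitive to this injury. Age and sex are not given in the sources used here. No vehicle-treated mice at 3 h or 6 h were analysed here, so time after the dose, length of fasting and time of day cannot be told apart.

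Fatty acids enter the mitochondrial matrix bound to carnitine. Cpt1a at the outer membrane makes the acylcarnitine, Slc25a20 carries it across the inner membrane and Cpt2 turns it back into acyl-CoA. The acyl-CoA dehydrogenases then remove electrons from the chain, the trifunctional protein made of Hadha and Hadhb completes the cycle on long chains, and Etfdh passes the dehydrogenases' electrons to ubiquinone in the respiratory chain. In the liver of a fasted animal this pathway supplies the acetyl-CoA for ketone bodies. The nuclear receptor PPARA drives many of its genes during fasting.

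The largest change of the 9 genes was in SJL at 3 h, where all 9 genes fell, and 9.93% of all tested genes passed the same test in either direction and 5.45% downward. The falls ran from 0.363 for Acadvl to 0.855 for Slc25a20 in size on the log2 scale, with a median of -0.595 against -0.0496 over all genes tested. Each change was also lower than the mean change of the other 3 strains (9 of 9 genes, against 4.61% of all genes in either direction and 2.40% downward). At 6 h in SJL 0 of 9 genes differed from 0 h, in a comparison in which 7.02% of all genes did. In SMJ, Cpt1a, Slc25a20 and Etfdh fell at 6 h (3 of 9 genes, against 20.9% of all genes in either direction and 12.3% downward). All tests are limma's moderated test with Benjamini-Hochberg adjustment over all 13981 genes, and changes are on the scale of log2(signal + 2.77).

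**Figure D1:**
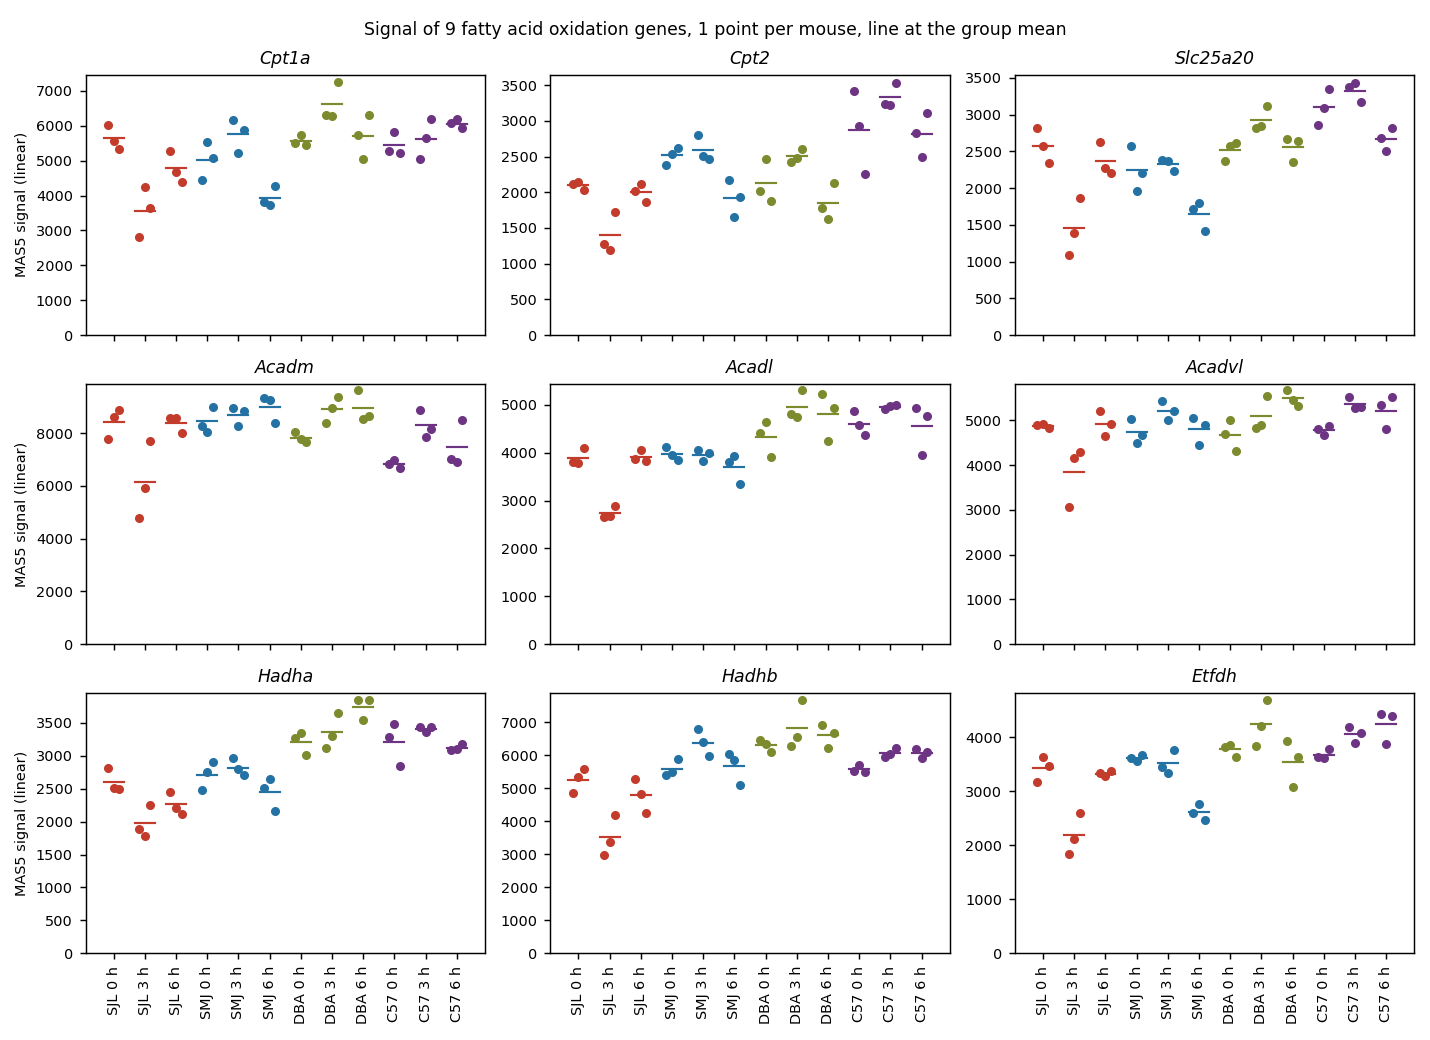
MAS5 signal (linear, vertical axes from 0) of each of the 9 genes in the 12 groups of 3 mice, with 1 point per mouse and a line at the group mean. The SJL 3 h group has the lowest mean in all 9 panels, for example 1453 for Slc25a20 against 2576 in SJL at 0 h.

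Albumin (Alb), the main protein secreted by hepatocytes, had signals of 10880 to 28850 on the 36 arrays. Arrays of the same group correlated at 0.914 to 0.963 over all tested genes. The lowest of these values was between the SJL 3 h mice numbered 39 and 40. SJL39 also had the lowest signal of all 36 mice for 7 of the 9 genes, so the main results are given with and without it. Actin's 3' to 5' signal ratio, a sign of RNA integrity, was 1.59 to 1.87 in SJL at 0 h and 1.41 to 1.51 at 3 h, with the Gapdh ratio at 0.74 to 0.798 and 0.73 to 0.752. Its part in the results was not tested. In RNA from whole liver, fewer cells of a type and less RNA per cell cannot be told apart.

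The carnitine shuttle held the largest change among the 9 genes. Slc25a20, the translocase, had signals of 2824, 2569 and 2336 in the SJL mice at 0 h, 1093, 1396 and 1871 at 3 h, and 2631, 2276 and 2200 at 6 h. Every 3 h mouse lay below every mouse of the other times, and the 0 h and 6 h mice overlapped. The change at 3 h was -0.86 (SE 0.138, adjusted p = 0.00017), or 1.81-fold lower than at 0 h. Between 3 h and 6 h the gene rose by 0.73 (adjusted p = 0.00436). Cpt1a, the step that malonyl-CoA inhibits, had signals of 6037, 5559 and 5332 at 0 h, 2812, 4251 and 3645 at 3 h, and 5287, 4674 and 4401 at 6 h. The 3 h mice were again all below the others, and the 6 h mice all lay below the 0 h mice. Its change at 3 h was -0.68 (SE 0.125, adjusted p = 0.000698), 1.6-fold lower. Its change of 0.44 from 3 h to 6 h did not pass the test (adjusted p = 0.0644). Cpt2, the inner membrane transferase, gave 2120, 2146 and 2035 at 0 h, 1273, 1194 and 1719 at 3 h, and 2013, 2114 and 1862 at 6 h. It fell by 0.61 at 3 h (SE 0.145, adjusted p = 0.00734), with no overlap between the 3 h mice and the rest.

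The promoters of these genes are shown because the genes moved together and because PPARA binds DNA as a pair with RXR at a repeat of the hexamer AGGTCA with 1 base of any kind between the copies. Sequences are from RefSeq, build GRCm38.p6, in which all 9 genes were matched. They cover 250 bases before and 50 bases after the annotated start. Allowing 2 mismatches on either strand, the repeat was found in 1 of the 9 windows, that of Slc25a20, beginning 6 bases after its start, and in 3.86% of all 32851 windows of this length. The Slc25a20 stretch lies on the plus strand at chr9:108661886-108662155, ends 20 bases into the transcript and has the repeat in capitals. The Cpt1a stretch, chr19:3323051-3323300 on the plus strand, ends at the base before the start, with a reverse-strand AGGTCA in capitals.
Slc25a20: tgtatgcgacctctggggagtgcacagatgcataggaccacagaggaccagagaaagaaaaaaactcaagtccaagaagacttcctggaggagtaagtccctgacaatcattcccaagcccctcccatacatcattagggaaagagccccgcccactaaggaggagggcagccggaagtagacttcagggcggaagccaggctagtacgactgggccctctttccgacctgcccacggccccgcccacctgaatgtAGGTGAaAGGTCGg
Cpt1a: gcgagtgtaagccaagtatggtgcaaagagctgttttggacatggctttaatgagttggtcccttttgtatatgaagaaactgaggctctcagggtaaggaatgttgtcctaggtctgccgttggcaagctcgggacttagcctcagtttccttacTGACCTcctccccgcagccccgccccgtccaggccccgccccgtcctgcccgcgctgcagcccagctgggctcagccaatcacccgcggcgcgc
The single hexamer AGGTCA was in the windows of 3 of 9 genes (Cpt1a, Acadm and Acadvl) and in 16.3% of all windows, counting both strands and including copies inside a repeat. The GC box GGGCGG was in 7 of 9 and 35.7%, the CCAAT box in 2 of 9 (Cpt1a and Etfdh) and 37.4%, and GCATGCGC, the core of the NRF1 site, in 2 of 9 (Acadm and Etfdh) and 2.71%. The only GC box of Hadha lies where its window overlaps that of Hadhb, so this site counts for both genes. Bases G and C made up at least 57.3% of each window but that of Acadvl (50.7%), against a median of 52.7% over all windows. The part of this in the counts was not tested. The motif counts are matches of letters in a short window and describe no binding.

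The 3 acyl-CoA dehydrogenases, which act on very long (Acadvl), long (Acadl) and medium (Acadm) chains, had changes of 0.36 to 0.51 in size in SJL at 3 h, against 0.61 to 0.86 for the shuttle, a contrast that was not tested. Acadl gave 3799, 3782 and 4101 at 0 h, 2659, 2674 and 2885 at 3 h, and 3877, 4051 and 3819 at 6 h. Its 3 h mice were close together and far below the rest, and the 6 h mice lay within the range of the 0 h mice. Acadl fell by 0.51 (SE 0.0952, adjusted p = 0.000842), 1.42-fold, and rose by 0.52 from 3 h to 6 h (adjusted p = 0.00408). Acadm gave 7787, 8625 and 8868 at 0 h, 4800, 5914 and 7703 at 3 h, and 8597, 8565 and 8002 at 6 h. Here the highest 3 h mouse nearly reached the lowest 0 h mouse. Acadm fell by 0.48 (SE 0.116, adjusted p = 0.00797), and without SJL39 its change was -0.32 and did not pass (adjusted p = 0.0652). Acadvl gave 4887, 4922 and 4832 at 0 h, 3055, 4157 and 4305 at 3 h, and 5210, 4655 and 4912 at 6 h. Its 0 h mice were nearly equal, and SJL39 was the farthest below them. Acadvl fell by 0.36 (SE 0.102, adjusted p = 0.0218), the smallest change of the 9 genes. Its change was -0.21 without SJL39 (adjusted p = 0.165), and it missed the threshold without SJL1, SJL2 or SJL4 as well (adjusted p = 0.0619, 0.0627 and 0.055).

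The trifunctional protein joins the long-chain hydratase and hydroxyacyl-CoA dehydrogenase of Hadha to the thiolase of Hadhb. The pair of genes sit head to head on chromosome 5, with annotated starts 273 bases apart, so that their windows share 228 bases at chr5:30155003-30155230. That stretch is shown, in the direction of Hadhb on the plus strand with a GC box in capitals, since both genes of the pair fell.
Hadhb and Hadha, shared: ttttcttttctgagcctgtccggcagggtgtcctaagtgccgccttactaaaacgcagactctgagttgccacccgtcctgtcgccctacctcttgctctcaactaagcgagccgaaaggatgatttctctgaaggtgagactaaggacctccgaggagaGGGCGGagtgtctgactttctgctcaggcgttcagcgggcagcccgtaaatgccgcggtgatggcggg
Hadhb gave 4864, 5346 and 5567 in SJL at 0 h, 2976, 3355 and 4199 at 3 h, and 5279, 4827 and 4246 at 6 h. It fell by 0.60 at 3 h (SE 0.107, adjusted p = 0.000554), 1.51-fold, and rose by 0.46 from 3 h to 6 h (adjusted p = 0.0235). All 3 h mice were below all others, though the highest of them and the lowest 6 h mouse were almost level. Hadha gave 2809, 2510 and 2490 at 0 h, 1893, 1786 and 2250 at 3 h, and 2457, 2206 and 2123 at 6 h. It fell by 0.40 at 3 h (SE 0.102, adjusted p = 0.0114), and its change from 3 h to 6 h of 0.20 did not pass (adjusted p = 0.371). The 3 h and 6 h mice of Hadha overlapped. Without SJL1 or SJL40 the change of Hadha at 3 h was -0.35 or -0.33 and missed the threshold (adjusted p = 0.0683 and 0.0652).

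Etfdh, the link to the respiratory chain, had 3176, 3635 and 3467 in SJL at 0 h, 1838, 2118 and 2599 at 3 h, and 3339, 3276 and 3370 at 6 h. It fell by 0.66 at 3 h (SE 0.107, adjusted p = 0.00018), 1.58-fold, and rose by 0.62 from 3 h to 6 h (adjusted p = 0.00201). The 3 h mice stood apart from both other times, and the 6 h mice lay inside the range of the 0 h mice.

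In each of the 9 genes all 3 SJL mice at 3 h lay below all 3 at 0 h, which was so for 13.8% of all genes tested. The mean log2 signal of the 9 genes, each centred on its own mean over the 36 arrays, was -0.816, -0.604 and -0.358 in SJL39, SJL40 and SJL42. Its SD in that group was 0.229, and 0.00919 to 0.103 in the other 11 groups. The test uses a spread pooled over all 12 groups. With the 6 SJL arrays of 0 h and 3 h alone, 0 of 9 genes passed by limma (adjusted p = 0.21 to 0.426, 6 of 9 at an unadjusted p under 0.05), as did 6 of all genes. Without SJL39, 7 of 9 genes passed with all other arrays in the fit.

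**Figure D2:**
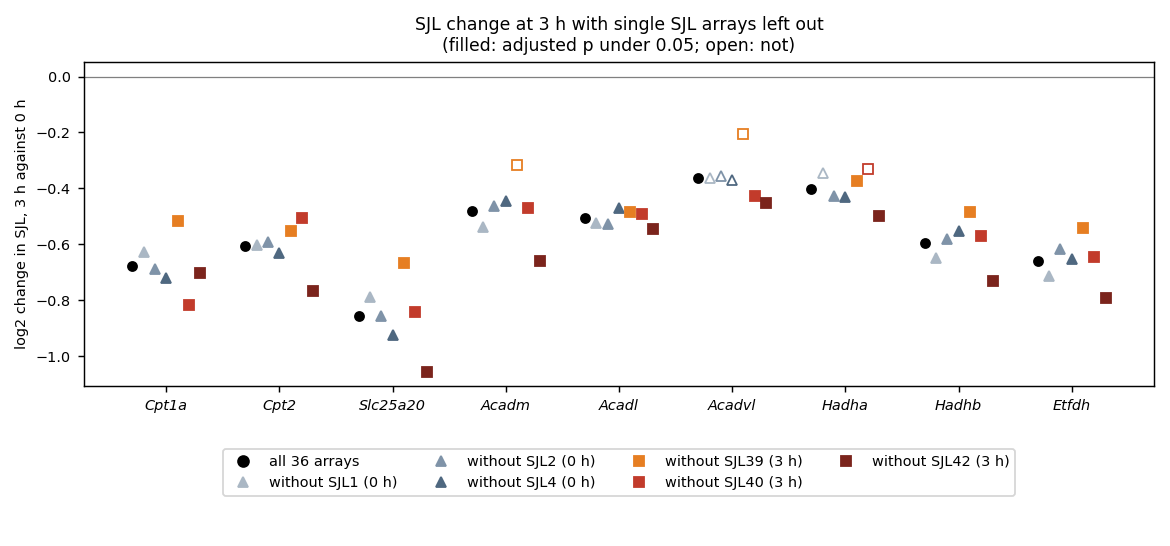
Log2 change in SJL from 0 h to 3 h (vertical axis) for each of the 9 genes, with all 36 arrays and with each of the 6 SJL arrays left out, filled where the adjusted p was under 0.05. Leaving out SJL39 brings the changes closer to 0, to -0.32 for Acadm and -0.21 for Acadvl, and leaves all 9 below 0.

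The comparison of SJL with the other strains asked whether the 3 h change was larger than theirs. It shares the SJL mice of 0 h and 3 h with the changes above and is no separate support for them. The difference in log2 change was -0.98 for Slc25a20 (SE 0.159, adjusted p = 0.000646), -0.84 for Cpt1a (SE 0.144), -0.78 for Cpt2 (SE 0.168), -0.75 for Etfdh (SE 0.124) and -0.74 for Hadhb (SE 0.124). The 3 dehydrogenases were at -0.65 for Acadm (SE 0.134), -0.61 for Acadl (SE 0.11) and -0.51 for Acadvl (SE 0.117), and Hadha, at -0.47 (SE 0.118), was the least different. All 9 passed (adjusted p = 0.000646 to 0.0181), also without SJL39 and with only the 24 arrays of 0 h and 3 h (adjusted p = 0.00399 to 0.0455). The fit of 24 arrays still pools the wider spread of SJL at 3 h with that of the other groups, so it does not check that difference in spread. After quantile normalization 6 of 9 passed, without Acadm, Acadvl and Hadha (adjusted p = 0.0689 to 0.104), and Hadha also missed the threshold without SJL1 or SJL40 (adjusted p = 0.0726 and 0.0733). The median difference was -0.737, against -0.0201 over all genes. An F test over the 4 strains passed for 7 of the 9 genes at 3 h, against 1.97% of all genes, and not for Acadvl (adjusted p = 0.0853) and Hadha (adjusted p = 0.118). After quantile normalization 2 of 9 passed it. At 6 h the SJL change differed from that of the other strains for 0 of 9 genes by limma (range of the difference -0.216 to 0.13, 0 of 9 at an unadjusted p under 0.05), against 0.393% of all genes.

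**Figure D3:**
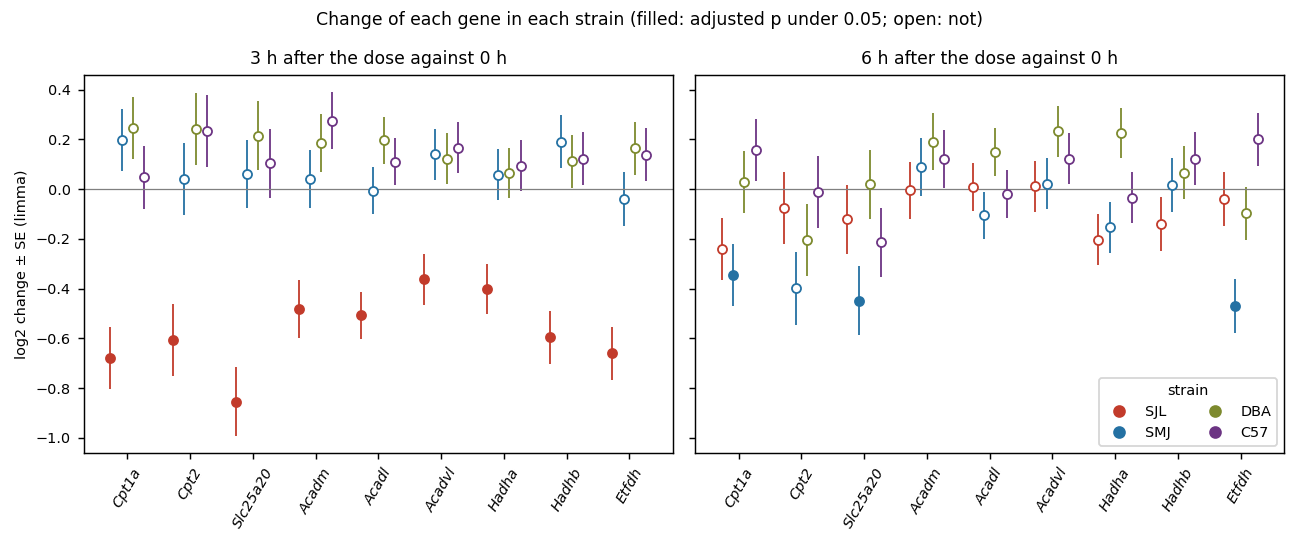
Log2 change ± SE (limma, 3 mice per group) of each of the 9 genes in each strain at 3 h (left) and 6 h (right) against 0 h of the same strain, filled where the adjusted p was under 0.05. At 3 h the SJL points are filled and run from -0.855 to -0.363 while the points of the other strains lie near or above 0, and at 6 h the filled points are SMJ's Cpt1a, Slc25a20 and Etfdh.

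At 0 h, before the dose, the 9 genes in SJL differed from the mean of the other strains by -0.232 to 0.133, and 0 of 9 passed by limma (1 of 9 at an unadjusted p under 0.05), where 12.1% of all genes did. Across the 4 strains at 0 h, Hadha was the 1 gene of 9 that differed by the F test (adjusted p = 0.038), in a comparison in which 26.1% of all genes did. Its mean signals at 0 h were 3205 ± 321 in C57, 3204 ± 174 in DBA, 2714 ± 217 in SMJ and 2603 ± 179 in SJL (SD, n = 3). That count of 1 rose to 4 with array weights and fell to 0 with quantile normalization, and it was 0 without SJL2, SJL4, SMJ57, DBA113, C57180 or C57181.

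From 3 h to 6 h in SJL, 5 of the 9 genes rose, against 2.00% of all genes in either direction and 1.42% upward. They were Slc25a20, Etfdh, Acadl, Hadhb and Acadm, the last by 0.48 (adjusted p = 0.0289). The other 4 had changes from 0.20 for Hadha to 0.53 for Cpt2 (adjusted p = 0.0514 to 0.371). This comparison uses the same 3 h mice as the fall. It gave 3 genes without SJL39, SJL44 or SJL45, and 0 of 9 with only its own 6 arrays (4 at an unadjusted p under 0.05). At 6 h the changes from 0 h lay between -0.239 and 0.0117 (adjusted p = 0.267 to 0.989). The SE of these changes was 0.0952 to 0.145, so a remaining fall of the size of Cpt1a's at that time (-0.24, SE 0.125) cannot be told from none.

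In DBA and C57 at 3 h all 9 changes were above 0, from 0.0646 to 0.246 in DBA and from 0.047 to 0.276 in C57, without passing the test. This depended on the scaling, since after quantile normalization the median over the 9 genes went from 0.185 to 0.0372 in DBA and from 0.123 to 0.0162 in C57, and some genes were below 0 in each strain. By limma 0 of 9 passed in either strain (1 of 9 at an unadjusted p under 0.05 in each), against 1.50% of all genes in DBA and 0.279% in C57. In SMJ at 3 h the changes were -0.0396 to 0.199 and 0 of 9 passed (0 at an unadjusted p under 0.05), against 0.172% of all genes. The group mean of Cpt1a went from 5565 ± 152 to 6612 ± 551 in DBA, 5439 ± 339 to 5631 ± 574 in C57 and 5023 ± 555 to 5757 ± 487 in SMJ (SD, n = 3). At 6 h 0 of 9 passed in DBA (2 of 9 at an unadjusted p under 0.05) and in C57 (0 of 9), against 12.4% and 10.0% of all genes. Their changes then ran from -0.204 to 0.233 in DBA and from -0.214 to 0.201 in C57.

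In SMJ the genes that fell did so at 6 h, and with the deposited scaling they belonged to the shuttle and to electron transfer. The actin ratio was 1.51 to 1.67 in SMJ at 0 h and 1.28 to 1.41 at 6 h, with the Gapdh ratio at 0.715 to 0.724 and 0.726 to 0.757. In DBA, where 0 of 9 genes passed at 6 h, the actin ratio was lower then too, at 1.69 to 1.82 and 1.38 to 1.53. In C57 it overlapped, at 1.55 to 1.76 and 1.62 to 1.76. The part of RNA integrity was not tested. Etfdh had 3624, 3554 and 3667 in SMJ at 0 h and 2596, 2765 and 2473 at 6 h, a fall of 0.47 (SE 0.107, adjusted p = 0.00222). All 6 h mice were well below the 0 h mice. Slc25a20 had 2572, 1964 and 2202 at 0 h and 1717, 1798 and 1417 at 6 h, and fell by 0.45 (SE 0.138, adjusted p = 0.0206). Cpt1a had 4440, 5544 and 5085 at 0 h and 3822, 3735 and 4265 at 6 h, and fell by 0.35 (SE 0.125, adjusted p = 0.0488). In both genes the groups were separate, for Cpt1a by little. Cpt2, with 2385, 2542 and 2617 at 0 h and 2165, 1647 and 1937 at 6 h, had a change of -0.40 that just missed the threshold (adjusted p = 0.0508). So the 3 shuttle genes and Etfdh had the most negative changes with this scaling. Those of the dehydrogenases and the trifunctional protein did not pass, with Acadm at 0.09 and a median over the 9 genes of -0.153. After quantile normalization Acadm (-0.43, limma adjusted p = 0.0228) and Acadl (-0.34, limma adjusted p = 0.027) fell as well. From 3 h to 6 h in SMJ, Cpt1a (-0.55, adjusted p = 0.00448), Slc25a20 (-0.51), Cpt2 (-0.44) and Etfdh (-0.43) fell, 4 of 9 genes against 11.9% of all genes (2 of 9 without SMJ95 or SMJ103). Of the 9 genes, Etfdh alone passed the F test for unequal change across strains at 6 h (adjusted p = 0.039, against 5.25% of all genes), with a change of 0.20 in C57, -0.10 in DBA, -0.04 in SJL and -0.47 in SMJ. That call was lost with no filter (adjusted p = 0.0713), 75th percentile scaling (0.0942), the mean of probe sets (0.472) or all probe sets tested (0.0602), and without SJL4, SJL45, SMJ56, SMJ57, SMJ58, SMJ101, SMJ103, DBA113, C57180, C57181, C57182, C57233 or C57237. The SMJ count at 6 h was 1 without SMJ58, 1 when arrays were scaled to their 75th percentile, 6 after quantile normalization and 0 with the 6 SMJ arrays alone (3 of 9 at an unadjusted p under 0.05).

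Averaged over the 4 strains the changes were small, from -0.119 to 0.0169 at 3 h and from -0.191 to 0.0994 at 6 h. At 3 h 0 of 9 passed by limma (0 at an unadjusted p under 0.05), against 7.06% of all genes, and at 6 h 1 of 9 did, against 32.7%. That gene was Slc25a20, which fell by 0.19 (SE 0.069, adjusted p = 0.0341). It missed the threshold with no filter (adjusted p = 0.0518) and with scaling to the 75th percentile (adjusted p = 0.126), where Acadvl passed upward instead (0.1431, adjusted p = 0.0341), and 8 of 9 genes passed after quantile normalization. The count was 0 without SJL1, SJL45, SJL48, SMJ56, SMJ103, DBA114, DBA115, DBA168 or C57236. Between 6 h and 3 h 0 of 9 passed (1 at an unadjusted p under 0.05), against 16.5%.

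Ordering the 12 group means put SJL at 3 h lowest for each of the 9 genes, as a description. The next lowest was SMJ at 6 h for Cpt1a, Slc25a20, Acadl and Etfdh, SJL at 6 h for Hadha and Hadhb, DBA at 6 h for Cpt2, C57 at 0 h for Acadm and DBA at 0 h for Acadvl. The highest group was DBA at 3 h for Cpt1a, Hadhb and Etfdh and C57 at 3 h for Cpt2, Slc25a20 and Acadl. For the other genes it was DBA at 6 h (Acadvl, Hadha) or SMJ at 6 h (Acadm). Of the 11 pairs of neighbours in each order, 9 to 11 had overlapping mice. The highest SJL 3 h mouse was below all 33 mice of the other groups for Acadl, Acadvl and Hadhb, and above 6 of them for Acadm. Neither the order of the groups nor this separation was counted over all genes tested. How common they are among all genes is thus not known. The levels of the 3 genes that fell in both SJL and SMJ are given here. Cpt1a in SJL was 5643 ± 360, 3569 ± 723 and 4788 ± 454 at 0 h, 3 h and 6 h, in SMJ at 6 h 3941 ± 284, and in DBA and C57 at 6 h 5698 ± 627 and 6060 ± 126 (SD, n = 3). Slc25a20 was 3098 ± 250, 3324 ± 136 and 2668 ± 156 at the 3 times in C57, then 2522 ± 134, 2927 ± 165 and 2557 ± 170 in DBA. It was 2246 ± 306, 2330 ± 81.2 and 1644 ± 201 in SMJ, and 2576 ± 244, 1453 ± 392 and 2369 ± 230 in SJL. Etfdh was 3682 ± 95.6, 4057 ± 156 and 4240 ± 307 in C57, then 3778 ± 122, 4247 ± 420 and 3551 ± 440 in DBA. It was 3615 ± 57.5, 3521 ± 224 and 2611 ± 146 in SMJ, and 3426 ± 232, 2185 ± 385 and 3328 ± 48.2 in SJL. In SMJ the means of Slc25a20 and Etfdh differed little between 0 h and 3 h and were lower at 6 h, whereas in SJL they were lowest at 3 h.

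Genes that work beside these 9 were described as lists, by how many members passed the same test in SJL at 3 h. Over all genes 9.93% passed there in either direction and 5.45% downward. Of 14 other mitochondrial beta-oxidation enzymes 5 fell and 0 rose, with 5 lower also without SJL39 and a list median of -0.256. They were Decr1 and the isomerases Eci1 and Eci2, which handle double bonds, the dehydrogenase Acad11 and the thioesterase Acot2. Decr1 fell by 0.80 (adjusted p = 1.7e-05) and Acot2 by 1.27, the latter uncertain because Acot1 is a near-identical copy. Of 11 genes of fatty acid uptake, binding and activation 5 fell (6 without SJL39), and the list median was -0.458. Crat, which exchanges acetyl groups between CoA and carnitine, fell by 1.12 (adjusted p = 0.000981), with signals of 633.6, 556.3 and 512.8 at 0 h and 183.4, 336 and 280.5 at 3 h. Slc22a5, the carnitine importer of the cell, fell by 0.90 (adjusted p = 0.00372). The others were Fabp1, Acbd5 and Slc27a2. Of 3 tested genes of ketone body synthesis and export, Slc16a1 and Acat1 fell by 0.62 and 0.55, and Bdh1 was at -1.01 (adjusted p = 0.0718). Of 11 enzymes of the citric acid cycle and matrix 1 fell (Dlst, by 0.38), a share near that of all genes, and that list's median was -0.0065. The summed signal of the 9 genes was 38300 to 39100 in the SJL mice at 0 h and 22400 to 31170 at 3 h, and that of the citric acid cycle list was 30060 to 33310 and 28600 to 33190, so one sum was lower in every 3 h mouse and the other overlapped. The difference between these lists was not tested.

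Entry into mitochondria is held in check by malonyl-CoA, which Acaca and Acacb make, Mlycd removes and the AMP-activated kinase subunits Prkaa1 and Prkaa2 limit. None of these 5 genes passed in SJL at 3 h, where 9.93% of all genes did. Their changes were 0.09 for Acaca, -0.44 for Acacb, -0.24 for Mlycd, 0.26 for Prkaa1 and -0.22 for Prkaa2 (median -0.219). In SMJ at 6 h Acacb (-0.79), Mlycd (-0.57) and Prkaa2 (-0.50) fell, against 20.9% of all genes in either direction and 12.3% downward. Acacb and Mlycd, which act in opposite directions on malonyl-CoA, thus moved the same way there.

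Among 13 regulators, Ppara and Creb3l3, a liver transcription factor active in fasting, fell in SJL at 3 h and the deacetylase Sirt1 rose. Ppard, Pparg, Rxra, Ppargc1a, Ppargc1b, Esrra, Hnf4a, Lpin1, Nrip1 and Sirt3 did not pass there. Over all genes 9.93% passed in that comparison and 5.45% downward. Ppara had signals of 1898, 1187 and 1569 at 0 h, 460, 731.7 and 603.1 at 3 h, and 1024, 969.3 and 587.9 at 6 h. The 0 h mice were all above the others, and the 3 h and 6 h mice overlapped. Its change at 3 h was -1.37 (SE 0.278, adjusted p = 0.00181), and it was not shown to differ from the other strains' change (-0.96, adjusted p = 0.085). Sirt1 went from 106.1, 106.7 and 95.95 to 204, 198.8 and 436.1, a rise of 1.32 (adjusted p = 0.000109). Without SJL39 the counts over the list were 2 higher and 1 lower. Its median was -0.118 with all arrays. In SMJ at 6 h Ppara fell by 1.78 (adjusted p = 4.57e-05), from 572.8, 1471 and 1648 to 313.8, 296.2 and 363.1. Rxra, the partner of PPARA, fell there by 0.51 and the mitochondrial deacetylase Sirt3 by 0.83, while Sirt1 rose by 0.70 and the corepressor Nrip1 by 0.69. In SMJ at 6 h 20.9% of all genes passed in either direction and 12.3% downward. Averaged over the strains at 6 h, 2 of the 13 regulators rose and 5 fell, Ppara by 1.14 (adjusted p = 4.23e-07), in a comparison in which 32.7% of all genes passed.

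Targets of PPARA outside mitochondrial beta-oxidation are given for the same comparisons. In SJL at 3 h 7 of 10 fell and 0 rose (6 without SJL39), against 9.93% of all genes in either direction and 5.45% downward. The list median was -1.13. Ehhadh, a peroxisomal beta-oxidation enzyme, fell by 1.46, from 7806, 11370 and 8027 to 2826, 3200 and 3749, and stood at 8239, 7934 and 7700 at 6 h. Pdk4, the kinase that shuts off pyruvate dehydrogenase, fell by 1.73, from 456.6, 558.8 and 367.4 to 101.1, 193.1 and 126.1. Both genes were far lower in every 3 h mouse. The other 5 were Vnn1 (-1.86), Acot1 (-1.45), Pex11a (-1.15), the lipid droplet protein Plin2 (-1.07) and the peroxisomal thiolase Acaa1b (-0.78). The value of Acot1 is uncertain, as that of Acot2 is, because the genes are near-identical copies. In SMJ at 6 h, Pex11a fell by 1.30, while Plin2 rose by 0.93 and Acaa1b by 0.47, against 20.9% of all genes called. The change in SJL at 3 h was below the mean of the other strains for 9 of the 10 targets (7 without SJL39, against 2.40% of all genes lower and 4.61% called). From 3 h to 6 h in SJL 8 of 10 rose, against 1.42% of all genes higher and 2.00% called. These comparisons share the SJL 3 h mice.

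**Figure D4:**
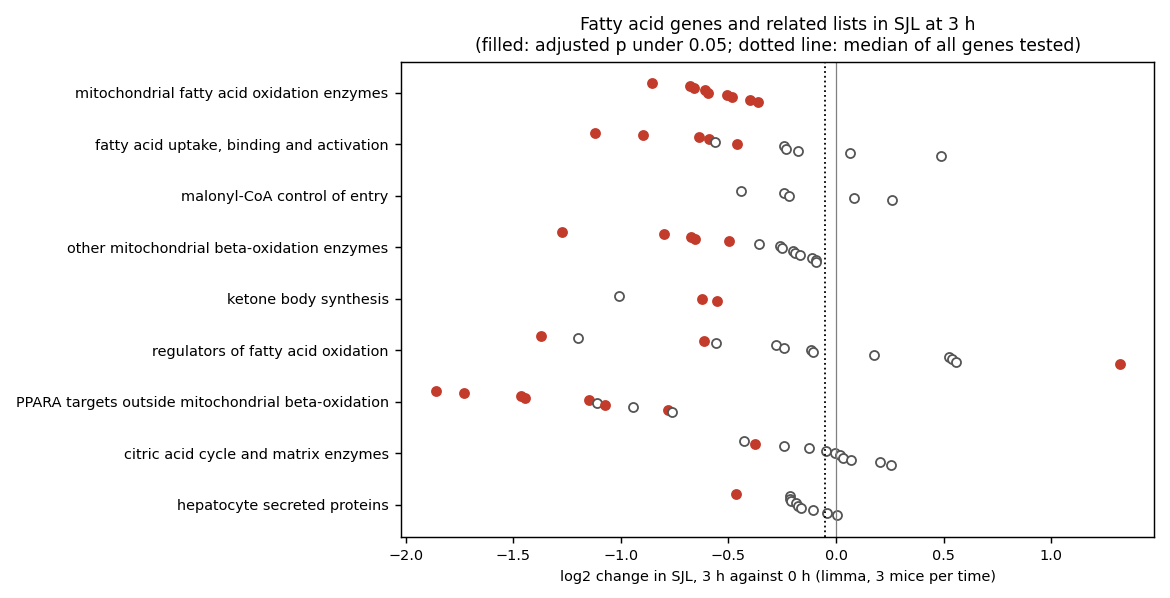
Log2 change in SJL from 0 h to 3 h (horizontal axis) of each gene in the 9 fatty acid oxidation genes and the related lists, 1 point per gene, filled where the adjusted p was under 0.05, with a dotted line at the median of all tested genes (-0.0496). The 9 genes and the PPARA targets that passed lie to the left of 0, and the citric acid cycle enzymes gather around it.

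Markers of cell types were read beside these results, against 9.93% of all genes called in SJL at 3 h and 5.45% lower. In that comparison 1 of 10 secreted hepatocyte proteins (Apob), 1 of 11 pericentral markers and 2 of 8 periportal markers fell, and none rose. The first 2 of these shares are near that of all genes. Of 13 markers of Kupffer cells, the macrophages of the liver, 5 fell and Cd14 rose by 2.30 (2 lower and 1 higher without SJL39). In stellate cells 3 of 10 fell (4 without SJL39), and in endothelium 1 of 11, a share again near that of all genes. Of 10 neutrophil markers 1 rose (Mmp8, by 2.29, and 0 without SJL39), a share also near that of all genes called. Of all 13981 genes tested, 626 rose in that comparison. None of 7 lymphocyte and 3 erythroid markers passed, and 1 of 4 bile duct markers rose. Summed neutrophil signal was 464.5 to 1036 at 0 h and 1139 to 2478 at 3 h, without overlap, and the Kupffer sum was 7451 to 8826 and 6007 to 6856. Also lower at 3 h without overlap were the pericentral sum (33250 to 38080, then 27380 to 32650) and the stellate sum (5474 to 5860, then 4080 to 5098). So was the erythroid sum (243.7 to 271.1, then 119.8 to 186). The secreted protein sum overlapped, at 131000 to 178800 and 120800 to 152000, as did the periportal, endothelial, lymphocyte and bile duct sums. In SMJ at 6 h the neutrophil sum was 1305 to 2274, against 209.4 to 359.1 at 0 h, and the secreted protein sum was 176100 to 223800, against 122700 to 126800. Other sums without overlap in SMJ were the periportal sum (85810 to 110700, against 60570 to 71470), the Kupffer sum (6011 to 6773, against 4504 to 5662), the bile duct sum (470 to 1089, against 172.7 to 207.9) and the erythroid sum (511.2 to 2219, against 155.3 to 178.8). The stellate sum was higher too (4665 to 5819, against 4238 to 4618). There 8 of 11 pericentral markers fell and 1 rose, against 12.3% of all genes lower and 20.9% called. Each sum adds linear signals, so its brightest genes weigh most. The neutrophil, lymphocyte, bile duct and erythroid sums include genes too dim to be tested. How often such sums separate between groups was not counted. The part of these markers in the results on the 9 genes was not tested.

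The 9 genes had 17 probe sets, of which 16 were tested, in a fit over 30393 probe sets. In SJL at 3 h 15 of 16 fell, against 3.87% of all probe sets downward, and the exception was a second Cpt2 probe set at -0.72 (adjusted p = 0.546). In SJL against the other strains 12 of 16 were lower, against 1.64%. Probe sets of 1 gene measure the same RNA and are not replicates. A Cpt1a probe set of the _x_at kind, which can bind related transcripts, gave means of 273.8 in SJL at 0 h and 929.8, 1358 and 1730 in the other strains (log2 difference -2.24, SE 0.259, adjusted p = 1.21e-06), where the brightest Cpt1a probe set differed by 0.08. A dim Hadhb probe set was lower at 3 h in the mean of all 4 strains (-1.32, SE 0.207, adjusted p = 0.000122), 1 of 16 to pass there. Its mean signals at 0 h and 3 h were 145.6 and 69.5 in C57, 128.1 and 43.39 in DBA, 90.47 and 40.11 in SMJ, and 128.6 and 40.84 in SJL. The transcript stretch that these probe sets read was not analysed here.

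Across all 36 arrays the tested genes most like the mean profile of the 9 were Hsd17b4 (r = 0.938), which encodes a peroxisomal beta-oxidation enzyme, the monoglyceride lipase Mgll (0.93), Decr1 (0.906), Tor1a (0.903) and Tspan31 (0.903). Without the SJL 3 h mice these Pearson correlations were 0.892, 0.788, 0.836, 0.806 and 0.815 over 33 arrays. Mean signals of Mgll in SJL were 1522, 685.9 and 1465 at 0 h, 3 h and 6 h. The most opposite were the adhesion molecule Icam1 (-0.897), Stap2 (-0.812) and the innate receptor Tlr2 (-0.792), and these were -0.738, -0.575 and -0.471 without the SJL 3 h mice. Mean signals in SJL at the 3 times were 205.6, 1292 and 369.1 for Icam1 and 30.65, 600.8 and 56.58 for Tlr2. Ppara's own correlation with the profile was 0.357. Between pairs of the 9 genes r ran from 0.286 to 0.882 (median 0.719 over 36 pairs), and from -0.328 to 0.812 (median 0.45) without the SJL 3 h mice. Of the genes outside the 9, those most like Cpt1a alone were Tor1a (0.853), Tmem86a (0.833) and Acad11 (0.831), and within the 9 it was Etfdh (0.85). The arrays share strains and times, and these values are given as a description with no test.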

How the data were processed

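Liver RNA from 36 mice (12 groups of 3) was measured on Affymetrix MOE430 2.0 arrays. The deposited values are MAS5 signal intensities on a linear scale, scaled to a trimmed mean of 150 per array (2% trimmed at each end, as the values show), with MAS5 named per the submitters' processing notes. Its version is not given there or in the labels. Of 45101 probe sets, 34945 had 1 symbol, 932 several and 9160 none, and 64 were controls. For each of 18193 genes the probe set with the highest mean log2 signal was used (_x_at and _s_at passed over where another existed), as log2(signal + 2.77), the offset being the 10th percentile. Genes above the median signal of 30.8 on at least 3 arrays were kept (13981). limma 3.58.1 in R 4.3.3 fitted all 12 groups (24 residual degrees of freedom), with Benjamini-Hochberg adjustment and a threshold of 0.05. The script was tested on simulated data. The number of arrays limits the precision, and no label names a batch, slide or scan.

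The 9 genes, the lists and the tests were chosen with earlier results of these data known. Named were all 9 genes and all tested genes of the regulator and malonyl-CoA lists, many of the regulators without values. Also named were the list genes with the smallest p at 6 h, and the genes most and least like the mean profile. Other list and marker genes, the comparisons of 6 h with 3 h within SJL and SMJ, and the counts without SJL39 were chosen after the values were seen. Alternatives were other offsets, filters, scalings and probe set rules, array weights, fits of single comparisons and leaving out each array. Motifs were searched in RefSeq promoter windows. Each mouse has its own number and none pairs mice across groups. Some genes of the lists were not analysed here.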

Additional observations from a re-analysis of the deposited data

Results flagged for a closer look

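The change of the 9 genes at 3 h differed between SJL and the other 3 strains by a test of the difference itself (limma, 3 mice per group, adjusted p under 0.05 for each). The SJL change minus the mean change of the other strains, on the log2 scale, was -0.9819 for Slc25a20, -0.8429 for Cpt1a, -0.7807 for Cpt2, -0.7486 for Etfdh, -0.7372 for Hadhb, -0.6493 for Acadm, -0.6075 for Acadl, -0.506 for Acadvl and -0.4741 for Hadha. In the F test over all 4 strains at 3 h the adjusted p was 0.00523 for Etfdh, 0.00529 for Slc25a20, 0.00731 for Hadhb, 0.00737 for Cpt1a, 0.0113 for Acadl, 0.0315 for Acadm and 0.0446 for Cpt2. At 6 h Etfdh differed between strains in the same way (limma adjusted p = 0.039), a call lost under 4 alternatives and on leaving out any of 13 arrays. These results share the same mice and are not separate findings, and each group had too few mice to look for single outlying values.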

How the results depend on the processing

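Numbers below are counts of the 9 genes that passed, by limma. The fall in SJL at 3 h (9) gave 7 with array weights (all but Acadm and Acadvl), 7 with the mean of a gene's probe sets (all but Cpt2 and Acadl), 0 with only its own arrays, where all genes went from 1388 to 6, and 7 to 9 with 1 array left out. The second probe sets of Cpt2 and Acadl were dim, with mean signals of 63.05 and 9.75 in SJL at 0 h. With them averaged in, the changes were -0.66 and -0.70 (adjusted p = 0.216 and 0.194). SJL against the other strains at 3 h (9) gave 6 with the mean of probe sets, 8 with array weights and 8 to 9 with an array left out. The F test at 3 h (7) gave 2 with quantile normalization, 3 with the mean of a gene's probe sets and 5 to 9 with an array left out. With quantile normalization the mean of strains gave 1 at 3 h and 8 at 6 h, SMJ 6 at 6 h, SJL 3 from 3 h to 6 h and the F test 0 at 0 h. Acadm (-0.1776), Acadl (-0.1553) and Hadhb (-0.2029) then turned downward in the mean at 6 h, and Acadm (-0.4303) in SMJ at 6 h. With the mean of a gene's probe sets the counts were 1 and 4 for the mean of strains at 3 h and 6 h, 1 for SJL against the others at 0 h, 2 from 3 h to 6 h in SJL and in SMJ, and 2 and 0 for the F test at 0 h and 6 h. Hadhb turned to -0.4565 in the mean and -0.7139 in SMJ at 6 h, and Cpt1a to -0.7778 in SJL against the others at 0 h. Scaling to the 75th percentile gave 1 in SMJ and 2 (upward) in DBA at 6 h, 8 from 3 h to 6 h in SJL, and 3 and 0 for the F test at 0 h and 6 h. It also raised the share of upward calls over all genes from 44% to 59.8% for the mean at 3 h and from 38.8% to 58.2% in DBA at 6 h. Array weights gave 2 for the mean at 6 h, 1 in DBA at 6 h, 1 for SJL against the others at 0 h, 3 from 3 h to 6 h in SJL, and 4 and 2 for the F test at 0 h and 6 h. No filter gave 0 for the mean at 6 h and for the F tests at 0 h and 6 h. A filter on the mean signal gave 8 from 3 h to 6 h in SJL and 3 for the F test at 0 h. With every probe set tested, the probe set chosen per gene gave 0 for the F tests at 0 h and 6 h. With only the arrays compared, the count was 0 in SMJ at 6 h, from 3 h to 6 h in SJL and SMJ, and for the F test at 0 h. Over all genes it was then 1041 against 2921, 0 against 280, 154 against 1659 for the first 3 of these. With 1 array left out the ranges were 0 to 2 for the mean at 6 h, 1 to 4 in SMJ at 6 h, 3 to 7 from 3 h to 6 h in SJL and 2 to 4 in SMJ, and 0 to 4 and 0 to 1 for the F test at 0 h and 6 h. The causes were not tested.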
